A study of Mus musculus with 6 samples.

Results

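The lysosome is the acidic compartment in which a macrophage breaks down what it has engulfed and the worn parts of its own cytoplasm. Measured here were 43 genes that build it: 10 proteases, 8 glycosidases, 7 genes for lipid hydrolases, their activator proteins and progranulin, 7 genes for membrane and cholesterol export proteins, 8 subunits of the proton pump, and the 3 related transcription factors Tfeb, Tfe3 and Mitf. The members were listed by gene name, with earlier results of these data known. Each was looked up by the gene name given for a probe on the array, and 41 matched directly. Tfeb and Tfe3 appear on the array under their older names and were matched through their transcript accessions. All 43 were among the 22258 genes and other transcripts that passed the detection filter, and the probe used for each was well above background on all 4 arrays for which scanner files with detection flags were read.

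The cells were RAW264.7, an established macrophage line derived from a mouse tumour induced by Abelson murine leukaemia virus. Control cultures received DMEM medium alone. Treated cultures received 50 µg/ml of AEPS, a polysaccharide that comes from the roots of Actinidia eriantha, a kiwifruit relative, and cells of both groups were taken at 4 h. Each group had 3 samples, and each sample was hybridised as Cy3-labelled cRNA to a mouse expression array with 1 colour. The labels do not say whether the samples of a group came from separate cultures, so the p-values measure only the spread between these samples, which may be technical, and a single line at 1 dose and 1 time stands for the macrophage throughout.

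The values are those of the authors' deposited table, on a log2 scale with the same distribution of values in every sample, so that a difference of 1 means a change of 2-fold relative to the bulk of the array. Of 59305 non-control spots, 55.4 to 58.7% were well above background on each distinct array. Of 11 macrophage markers, 10 were well above background on all 4 arrays, with levels up to 17.92, and Mertk was above background on none. None of the 5 epithelial markers was well above background on all 4 arrays, and their levels in the table ran from 1.41 to 4.68. Among the markers of other cell types, Cd3e, Cd4, Cd79a, Cd79b and Col1a2 were well above background on all 4 arrays. The log2 of the summed macrophage markers was 18.83 to 18.96 in the controls and 18.70 to 18.77 with AEPS. The log2 of the summed T cell markers was 12.90 to 13.45 in the controls and 12.31 to 13.04 with AEPS, that of the B cell markers 7.96 to 8.05 and 8.53 to 8.68, and that of the fibroblast markers 7.05 to 7.53 and 6.30 to 6.98. Their part in the results was not tested. The treatment itself was visible in 4 genes of macrophage activation: relative to the controls, the log2 value was 8.13 higher for the cytokine gene Il1b, 4.04 for the prostaglandin synthase gene Ptgs2, 3.62 for Tnf and 1.63 for the nitric oxide synthase gene Nos2, with limma adjusted p of at most 0.000147.

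Lysosomal hydrolases are made in the endoplasmic reticulum, tagged with mannose 6-phosphate in the Golgi and delivered to an organelle that a V-type ATPase keeps acid by pumping protons at the cost of ATP. TFEB, TFE3 and MITF are helix-loop-helix factors that bind short E-box sequences. When the kinase complex mTORC1 is active on the lysosome surface they are held in the cytoplasm by phosphorylation, and when it is not they enter the nucleus and raise the transcription of many lysosomal genes, a set known as the CLEAR network. Control at the level of the protein is not seen on an expression array.

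With AEPS, 12 of the 43 genes were higher and 9 were lower at an adjusted p under 0.05, and 22 did not pass. The fit was limma without pairing of samples, with Benjamini-Hochberg adjustment over all 22258 features. It gave all calls below unless another fit is named. Over all features, 37.1% passed in either direction, 18.8% higher and 18.3% lower, against 48.8% of the lysosome genes. The groups did not overlap for 23 of the 43 (13 with all AEPS samples above all controls, 10 with all below), that is 53.5%, where 50.3% of all features had groups that did not overlap. The size of the changes was modest: the median absolute log2 difference was 0.23 for the lysosome genes and 0.33 for all features, and the medians with sign were -0.03 and -0.06. A change of 2-fold or more was seen for 1 of the 43, Tfeb, against 9.01% of all features. A change of 1.5-fold or more was seen for 6 of the 43, a count that was not taken over all features. The array measures RNA from a whole culture, and less RNA per cell cannot be told apart from fewer cells that hold it.

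**Figure D1:**
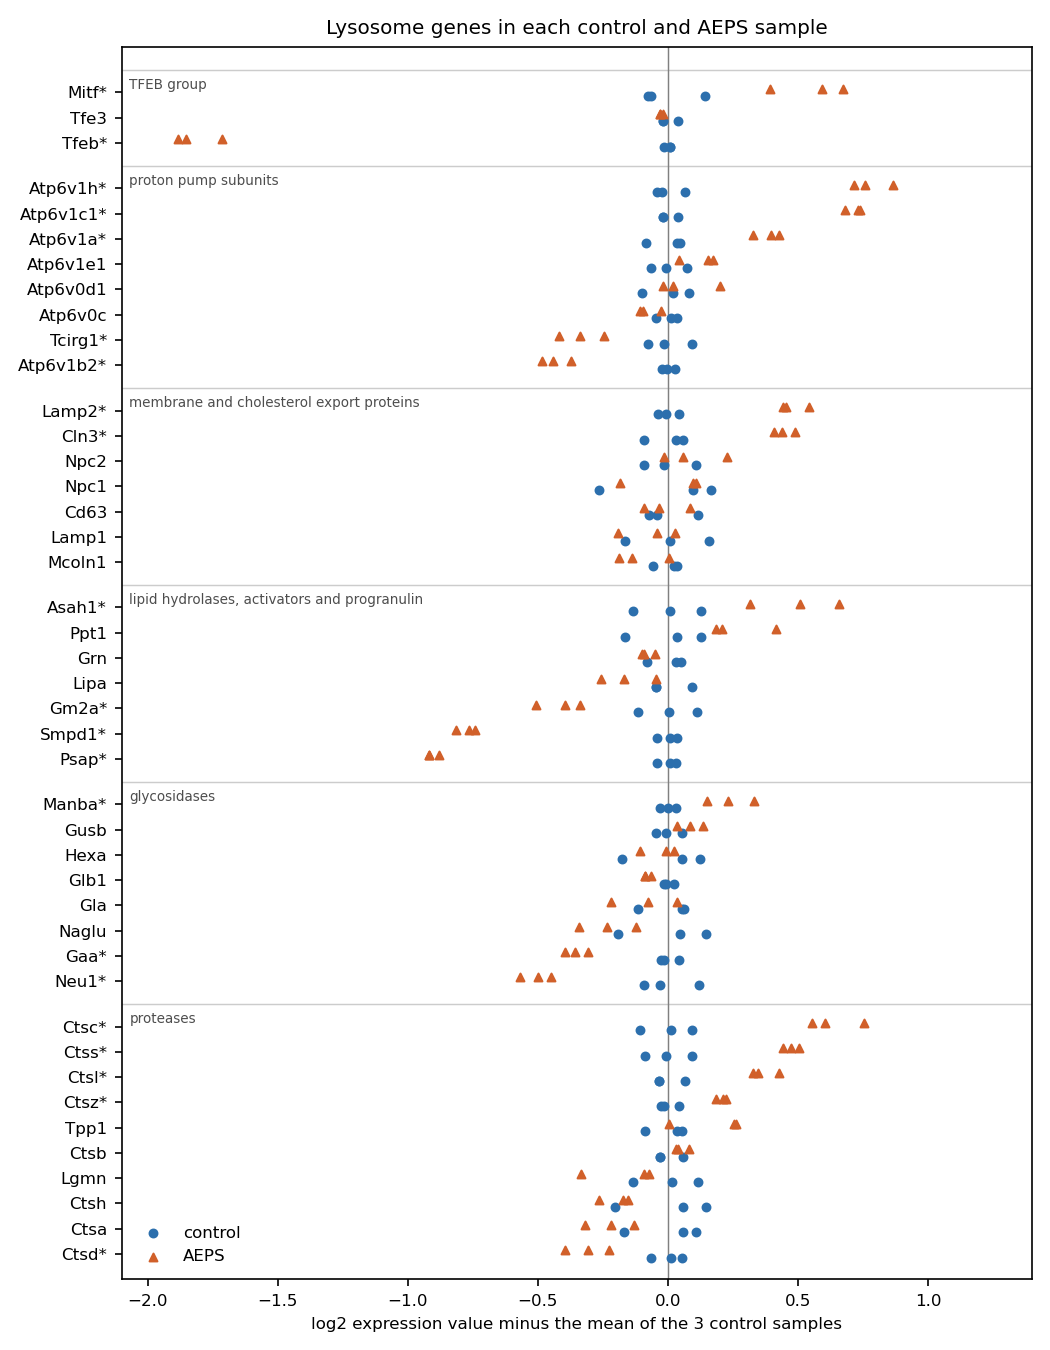
Each of the 43 lysosome genes in every sample, grouped by role. The horizontal axis is the log2 expression value minus the mean of the 3 control samples of that gene; blue circles are control samples, orange triangles AEPS samples, and an asterisk marks genes with an adjusted p under 0.05. The 3 AEPS samples of Tfeb, at a mean of -1.82, stand far from its controls, no other gene moves by 1 unit, and each role other than the membrane proteins holds marked genes on both sides of 0.

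All of these differences are relative to the array's own distribution, and the choice of scaling moved them together. The scanner signal at the 75th percentile was 398 and 284 for the distinct arrays of the control group, against 577 and 482 for AEPS. The mean log2 signal of 8 spike-in probes, which detect RNA of known amount added to each sample, was 13.38 and 13.25 for the control group, against 13.27 and 13.33 for AEPS. On these scanner signals the median log2 difference of all features was -0.18 with scaling to the 75th percentile and 0.49 with scaling to the spike-in probes, a shift of 0.67, against a median of -0.06 in the value table. Under that scaling 28.8% of all features passed the threshold, 6189 higher and 221 lower, with 17 lysosome genes higher and 1 lower. With the common shift, 40 of the 43 lysosome genes had differences above 0, against 19 with scaling to the 75th percentile. These counts were not taken over all features. All 12 genes called higher in the table passed, at 0.80 to 1.51. A further 5 that had not passed in the table were called higher: Ppt1 (1.02, adjusted p 0.0226), Atp6v1e1 (0.78, 0.0338), Npc1 (0.68, 0.0397), Gusb (0.68, 0.043) and Tpp1 (0.78, 0.0452). Of the 9 called lower, Tfeb, Psap and Smpd1 stayed below 0, and 6 turned above 0 without passing. A gene described below as lower is therefore lower relative to the bulk of the transcripts, and the value with spike-in scaling is given where its sign or call differs.

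**Figure D2:**
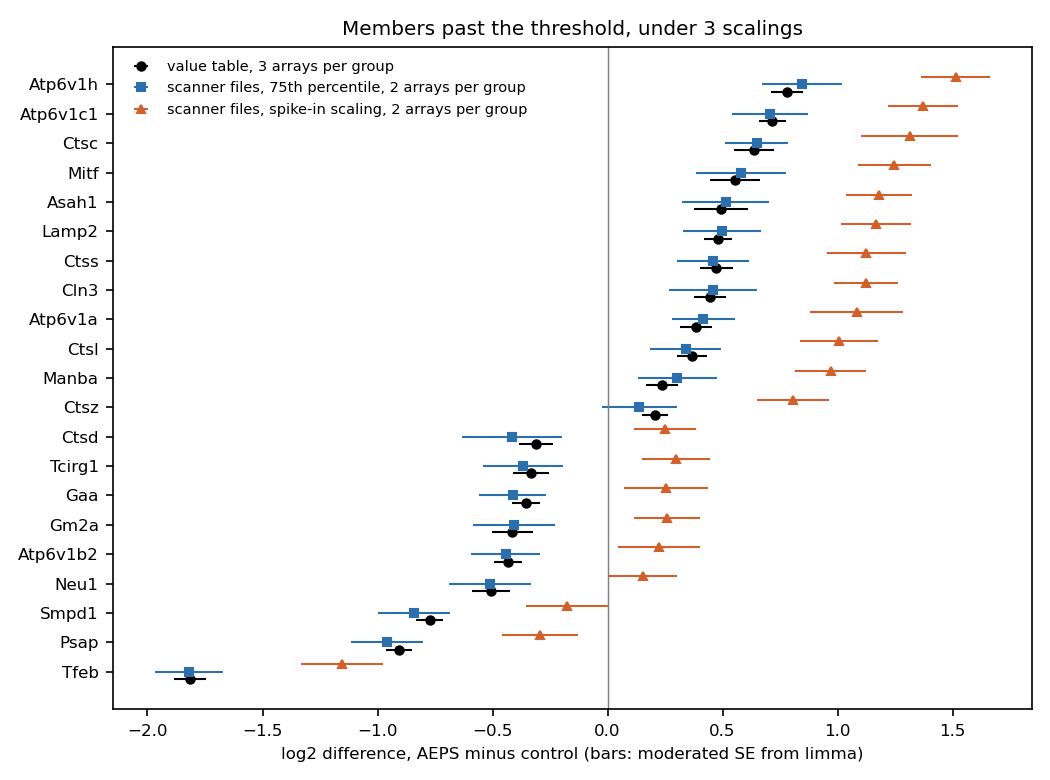
The 21 lysosome genes past the threshold, with the log2 difference between AEPS and control on the horizontal axis and bars showing the SE from limma. Black circles are the value table (3 samples per group), blue squares the scanner signals scaled to the 75th percentile and orange triangles those scaled to spike-in probes (2 arrays per group each). The black and blue points lie on the same side of 0 for all 21 genes, and the orange points of Ctsd, Tcirg1, Gaa, Gm2a, Atp6v1b2 and Neu1 cross from below to above 0.

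The largest change in the set was in Tfeb, which encodes the factor best known for driving lysosomal genes. Its log2 values in the controls were 10.11, 10.11 and 10.09, and with AEPS they were 8.22, 8.39 and 8.25. All AEPS samples lay far below all controls, and the spread within either group was small beside the gap (SD 0.012 and 0.091, n = 3 each). The difference of -1.82 (SE 0.07) had an adjusted p of 9.57e-05, so that control cells held 3.52-fold more Tfeb signal. Only 1 probe was matched to Tfeb, at chr17:47929089-47929148 of the mm9 build, so the fall rests on that probe. With spike-in scaling Tfeb was still lower, by a log2 difference of -1.15 with an adjusted p of 0.0263, and when any single sample was left out the adjusted p was at most 0.0018. It had the lowest log2 difference of the 43 in the table and under both the 75th percentile and the spike-in scaling of the scanner signals.

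Mitf, the relative of TFEB best known from pigment cells and osteoclasts, moved the other way on the probe used. Its controls were at 11.68, 11.67 and 11.89 and its AEPS samples at 12.14, 12.34 and 12.42, with no overlap. The difference was 0.55 (SE 0.11) with an adjusted p of 0.0121. A further Mitf probe, at chr6:97968501-97968560 of mm9, gave 11.18, 11.09 and 11.25 in the controls and 11.09, 11.07 and 11.26 with AEPS, a difference of -0.03 with overlapping groups, whereas the brighter probe lies at chr6:97971229-97971288. With the mean of both probes the difference was 0.26 and the adjusted p 0.0755, so the rise of Mitf rests on 1 of its 2 probes. Which transcripts each probe detects was not tested.

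Tfe3, the third factor of the group, is expressed in most tissues. Its values were 13.96, 13.90 and 13.90 in the controls and 13.90, 13.89 and 13.89 with AEPS. The difference of -0.03 (SE 0.06) had an adjusted p of 0.75, and with spike-in scaling it was 0.60 with an adjusted p of 0.0738. The 3 factors thus gave 1 fall, 1 rise that depended on the probe and 1 difference that did not pass.

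**Figure D3:**
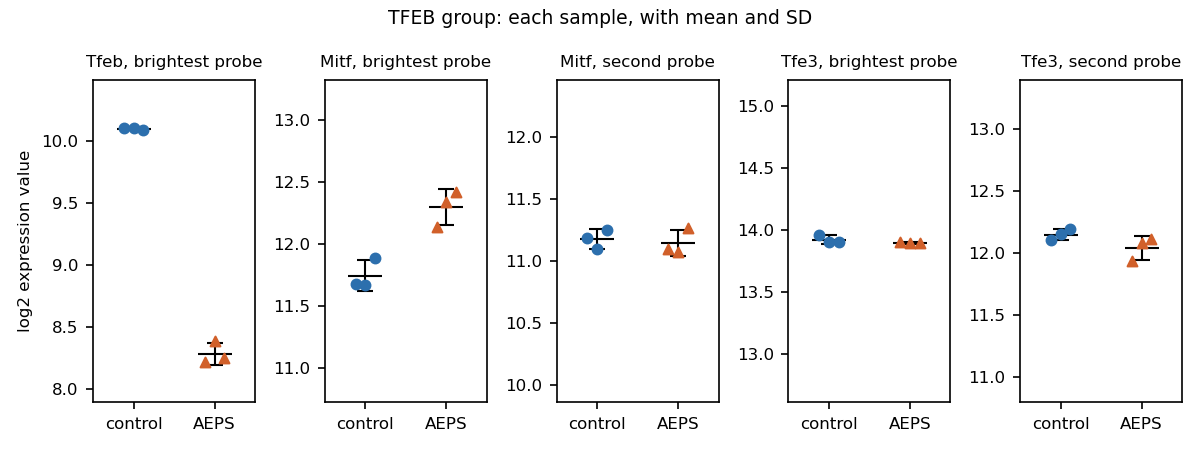
Log2 expression values of Tfeb, Mitf and Tfe3 in each sample; blue circles are control and orange triangles AEPS, the horizontal bars the mean and the whiskers the SD of 3 samples. Every panel spans the same number of log2 units, but each has its own baseline because levels of different probes are not comparable. Tfeb falls from about 10.10 to 8.29, the brighter Mitf probe rises from 11.75 to 12.30, and the second Mitf probe and both Tfe3 probes overlap between groups.

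Matches to the E-box sequences that this group of factors binds were sought in the members' promoters. A promoter was taken as 250 bases before to 50 after the gene start in RefSeq on GRCm38.p6, where 36 of the 43 members had an entry. The E-box core CACGTG was present in 13 of the 36 (36.1%) and in 8.09% of the 27025 genes with a promoter entry. The longer form TCACGTGA, which contains the core, was present in 7 of the 36 (19.4%) and in 1.12% of all genes. Many lysosomal genes are known targets of these factors, so the shares describe the list and not an effect of AEPS. Both motifs are palindromes, so each match counts for both strands. The promoters of 3 genes with the longer form that passed the threshold are shown whole, because they moved in opposite directions: the aspartic protease gene Ctsd was lower with AEPS, and the membrane protein gene Cln3 and the pump subunit gene Atp6v1a were higher. The fall of Ctsd was relative to the bulk of transcripts and turned to 0.25 with spike-in scaling. Its call was lost without control replicate 2 or 3 or AEPS replicate 1 or 3. The promoters of Ctsd, Cln3 and Atp6v1a lie at chr7:142387778-142388077, chr7:126583187-126583486 and chr16:44139210-44139509, each on the minus strand. They are written 5′ to 3′ in the direction of the gene with TCACGTGA in capitals.
Ctsd: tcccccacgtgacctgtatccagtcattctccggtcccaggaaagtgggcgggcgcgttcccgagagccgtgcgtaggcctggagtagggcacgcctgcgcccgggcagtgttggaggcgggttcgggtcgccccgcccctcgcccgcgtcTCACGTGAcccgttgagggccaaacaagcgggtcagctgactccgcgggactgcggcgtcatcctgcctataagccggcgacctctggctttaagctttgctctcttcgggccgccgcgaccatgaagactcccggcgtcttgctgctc
Cln3: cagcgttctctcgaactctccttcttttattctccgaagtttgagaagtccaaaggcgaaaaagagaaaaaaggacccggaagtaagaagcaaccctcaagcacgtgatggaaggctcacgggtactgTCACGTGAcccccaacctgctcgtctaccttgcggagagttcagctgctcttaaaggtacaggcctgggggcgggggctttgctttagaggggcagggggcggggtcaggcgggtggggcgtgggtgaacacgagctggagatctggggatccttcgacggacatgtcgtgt
Atp6v1a: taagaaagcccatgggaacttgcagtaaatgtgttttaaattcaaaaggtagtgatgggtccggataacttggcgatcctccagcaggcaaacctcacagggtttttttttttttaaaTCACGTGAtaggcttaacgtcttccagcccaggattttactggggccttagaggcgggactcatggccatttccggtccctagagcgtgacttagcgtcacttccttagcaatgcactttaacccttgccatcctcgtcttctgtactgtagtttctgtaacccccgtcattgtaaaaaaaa
In these promoters the motif begins at 99, 122 and 132 bases before the gene start, respectively.

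The other 4 members with TCACGTGA were Ctsa, Mcoln1, Atp6v0d1 and Gla, none of which passed the threshold. Their matches are shown with the bases around them, from chr2:164833740-164833787 (plus strand), chr8:3500453-3500500 (plus strand), chr8:105566041-105566088 (minus strand) and chrX:134601206-134601253 (minus strand).
Ctsa: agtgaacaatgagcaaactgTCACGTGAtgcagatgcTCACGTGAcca
Mcoln1: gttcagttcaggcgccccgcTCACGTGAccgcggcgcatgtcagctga
Atp6v0d1: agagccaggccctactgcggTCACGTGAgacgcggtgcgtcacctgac
Gla: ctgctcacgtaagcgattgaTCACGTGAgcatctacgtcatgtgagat
Ctsa and Gla each hold the motif at 2 positions. Of the 7 genes with the longer form, 2 were higher, 1 was lower and 4 did not pass, and of the 13 with the core, 3 were higher, 2 were lower and 8 did not pass. Over all features 37.1% passed in either direction. The promoters of Tfeb, Tfe3 and Mitf in the table hold neither form. A match shows that these letters stand in the window and does not show that a factor is bound there.

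The proton pump had the strongest rises among the members. It is built from a V1 part that splits ATP outside the organelle and a V0 part through which protons cross the membrane. Of its 8 subunits measured, 3 were higher, 2 were lower and 3 did not pass, with a median log2 difference of 0.10. By role, from 28.6% (membrane and cholesterol export proteins) to 66.7% (the TFEB group) of the members passed, where 37.1% of all features did. The 3 that rose belong to the V1 part, as do Atp6v1b2, which was lower, and Atp6v1e1, which did not pass. Of the further pump genes taken up below, the V0 gene Atp6v0d2 was higher (0.38) and the V1 genes tested did not pass.

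Atp6v1h encodes a subunit that regulates the activity of the V1 part. Its values were 10.00, 10.09 and 9.98 in the controls and 10.78, 10.89 and 10.74 with AEPS. Every AEPS sample lay above every control by at least 0.65, and the difference of 0.78 (SE 0.07) was a 1.72-fold rise with an adjusted p of 0.00107. Atp6v1c1 encodes a subunit at the junction between the V1 and V0 parts. Its values were 10.64, 10.70 and 10.64 in the controls and 11.34, 11.39 and 11.40 with AEPS. The groups were again apart, with a difference of 0.72 (SE 0.06), a 1.64-fold rise and an adjusted p of 0.000753.

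Atp6v1a encodes the catalytic subunit that splits ATP. Its values were 12.29, 12.17 and 12.30 in the controls and 12.68, 12.58 and 12.65 with AEPS, a difference of 0.38 (SE 0.07) with an adjusted p of 0.00924. A further Atp6v1a probe also had no overlap but a smaller difference of 0.12. Its partner in the ATP-splitting head, Atp6v1b2, went the other way, with 11.00, 11.03 and 10.98 in the controls and 10.63, 10.52 and 10.56 with AEPS. The difference of -0.43 (SE 0.06, adjusted p 0.00419) turned to 0.22 with spike-in scaling (adjusted p 0.426). Of the 2 nucleotide-binding subunits of the head, 1 was thus called higher and 1 lower relative to the bulk of transcripts.

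Tcirg1 encodes the a3 isoform of the largest V0 subunit, used by osteoclasts and macrophage lysosomes. Its values were 12.92, 12.98 and 13.09 in the controls and 12.58, 12.66 and 12.75 with AEPS. The difference of -0.33 (SE 0.08, adjusted p 0.024) turned to 0.30 with spike-in scaling (adjusted p 0.218), and it missed the threshold when any of 4 samples was left out (control replicates 2 and 3, AEPS replicates 1 and 2; adjusted p 0.0655 to 0.0802). The proton-carrying ring subunit Atp6v0c (-0.08), the V0 subunit Atp6v0d1 (0.07) and the stalk subunit Atp6v1e1 (0.12) did not pass and overlapped between groups, and Atp6v0c turned to 0.48 with spike-in scaling.

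Among the proteases, 4 of 10 were higher, 1 was lower and 5 did not pass, with a median log2 difference of 0.11. The genes that rose encode cysteine cathepsins, as do Ctsb and Ctsh, which did not pass, and Ctsf of the other hydrolases below, which was lower (-0.69). Ctsc encodes dipeptidyl peptidase I, which activates the serine proteases of immune cell granules. Its values were 11.12, 11.04 and 10.92 in the controls and 11.78, 11.63 and 11.58 with AEPS. The groups did not overlap, and the difference of 0.64 (SE 0.09) was a 1.55-fold rise with an adjusted p of 0.00405.

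Ctss encodes cathepsin S, which trims the invariant chain during antigen presentation. It stood at 14.44, 14.36 and 14.54 in the controls and at 14.89, 14.92 and 14.95 with AEPS, a difference of 0.47 (SE 0.07, adjusted p 0.0051). Ctsl, for the endopeptidase cathepsin L, stood at 15.42, 15.42 and 15.52 in the controls and at 15.88, 15.78 and 15.80 with AEPS, a difference of 0.37 (SE 0.07, adjusted p 0.00918). Both had all AEPS samples above all controls. Ctsz, for the carboxypeptidase cathepsin Z, had the smallest rise that passed, from 15.75, 15.68 and 15.69 to 15.92, 15.93 and 15.89. Its difference was 0.21 (SE 0.06, adjusted p 0.0383), and it missed the threshold when any 1 of the 6 samples was left out (adjusted p 0.0564 to 0.127).

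Ctsd encodes cathepsin D, the main aspartic protease of the organelle. Its values were 16.12, 16.24 and 16.20 in the controls and 15.79, 15.96 and 15.88 with AEPS. The AEPS samples were all below the controls, by a mean of -0.31 (SE 0.07, adjusted p 0.0238). A further Ctsd probe gave -0.27, also without overlap. With spike-in scaling the Ctsd difference turned to 0.25 (adjusted p 0.252). The call was lost without control replicate 2 or 3 or without AEPS replicate 1 or 3 (adjusted p 0.0667 to 0.0854).

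The proteases that did not pass were Ctsa at -0.22, Ctsh at -0.20, Lgmn at -0.17, Ctsb at 0.05 and Tpp1 at 0.17. Ctsa encodes the serine carboxypeptidase that also shields neuraminidase and beta-galactosidase from degradation, Ctsh an aminopeptidase, Lgmn the asparagine-specific legumain, Ctsb cathepsin B and Tpp1 a tripeptidyl peptidase. The first 3 turned above 0 with spike-in scaling, at 0.25, 0.54 and 0.42. For Ctsa the probes disagreed: the brighter gave 17.20, 16.92 and 17.15 against 16.87, 16.77 and 16.96 with overlap, and the dimmer gave 8.09, 8.38 and 8.32 against 7.13, 7.43 and 7.26, a difference of -0.99 with no overlap. With the mean of its probes Ctsa was called lower, at -0.61 with an adjusted p of 0.0019. Ctsh passed once, without control replicate 1, at -0.30 with an adjusted p of 0.0453.

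The lipid-handling genes held the deepest falls after Tfeb: 3 of 7 were lower, 1 was higher and 3 did not pass, with a median of -0.16. Psap encodes prosaposin, which is cut into the saposins that present sphingolipids to their hydrolases. Its values were 12.65, 12.70 and 12.72 in the controls and 11.81, 11.77 and 11.77 with AEPS. The groups were separated by 0.84 at their nearest points, and the difference was -0.91 (SE 0.06, adjusted p 0.000351), with 1.87-fold more signal in the controls.

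Smpd1 encodes acid sphingomyelinase, which splits sphingomyelin into ceramide and phosphocholine. Its values were 12.66, 12.58 and 12.63 in the controls and 11.81, 11.88 and 11.86 with AEPS, again far apart. The difference of -0.77 (SE 0.06) had an adjusted p of 0.00064, with 1.71-fold more signal in the controls. With spike-in scaling Psap and Smpd1 kept their sign but shrank to -0.29 and -0.18 and did not pass (adjusted p 0.268 and 0.536). Asah1 encodes acid ceramidase, the enzyme that acts on the ceramide which Smpd1 makes, and it went the other way. Its values were 9.40, 9.54 and 9.66 in the controls and 9.85, 10.04 and 10.19 with AEPS, a difference of 0.49 (SE 0.12, adjusted p 0.024). A further Asah1 probe gave 0.60, also without overlap. The call for Asah1 was lost without control replicate 1 or 2 or AEPS replicate 2 or 3 (adjusted p 0.0626 to 0.0782).

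Gm2a encodes the activator that hands the ganglioside GM2 to hexosaminidase. Its values were 10.68, 10.80 and 10.91 in the controls and 10.29, 10.40 and 10.46 with AEPS. The difference of -0.41 (SE 0.09, adjusted p 0.0166) turned to 0.26 with spike-in scaling (adjusted p 0.264), and the call was lost without control or AEPS replicate 2 (adjusted p 0.0594 and 0.0566). Ppt1, for palmitoyl-protein thioesterase, did not pass at 0.27 (SE 0.11, adjusted p 0.111), although its AEPS values of 9.65, 9.88 and 9.67 all lay above its control values of 9.30, 9.59 and 9.50. The acid lipase gene Lipa (-0.16) and the progranulin gene Grn (-0.08) did not pass, and scaling to the spike-in probes took both above 0, to 0.48 and 0.52.

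Of the 8 glycosidases, 2 were lower, 1 was higher and 5 did not pass, with a median of -0.08. Neu1 encodes the lysosomal sialidase. Its values were 13.74, 13.80 and 13.95 in the controls and 13.26, 13.33 and 13.38 with AEPS, with no overlap. The difference of -0.51 (SE 0.08, adjusted p 0.00632) turned to 0.15 with spike-in scaling (adjusted p 0.502). Gaa encodes the acid alpha-glucosidase that digests glycogen. It fell from 12.25, 12.18 and 12.19 to 11.85, 11.81 and 11.90, a difference of -0.35 (SE 0.06, adjusted p 0.008) that turned to 0.25 with spike-in scaling (adjusted p 0.38). A further Gaa probe gave -0.56, also without overlap.

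Manba encodes beta-mannosidase, which removes the last mannose of N-glycans. Its values were 10.50, 10.53 and 10.56 in the controls and 10.76, 10.86 and 10.68 with AEPS, and its difference of 0.24 (SE 0.07) passed by little, with an adjusted p of 0.0483. The call was lost when any 1 of the 6 samples was left out (adjusted p 0.0585 to 0.146). The glycosidase genes that did not pass were Naglu, for a heparan sulfate hydrolase (-0.23), Gla, for alpha-galactosidase A (-0.09), Glb1, for beta-galactosidase (-0.08), Hexa, for the alpha subunit of hexosaminidase (-0.03), and Gusb, for beta-glucuronidase (0.08). The 4 with negative differences turned above 0 with spike-in scaling, at 0.44, 0.24, 0.56 and 0.61. The Glb1 groups did not overlap although the difference did not pass: its AEPS values of 11.84, 11.84 and 11.86 all lay below its control values of 11.92, 11.95 and 11.91, and the adjusted p was 0.305.

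Of the 7 genes for membrane and cholesterol export proteins, 2 were higher, none was lower and 5 did not pass at an adjusted p under 0.05 in limma, with a median of 0.01; at an unadjusted p under 0.05 the count of lower genes was also 0. Lamp2 encodes a heavily glycosylated protein of the lysosome's limiting membrane, with roles in fusion and in chaperone-mediated autophagy. Its values were 10.45, 10.50 and 10.42 in the controls and 10.91, 11.00 and 10.90 with AEPS. The groups did not overlap, the difference was 0.48 (SE 0.06) and the adjusted p was 0.00331. A further Lamp2 probe gave 0.58, also without overlap.

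Cln3 encodes the membrane protein lost in juvenile neuronal ceroid lipofuscinosis. Its values were 12.69, 12.84 and 12.81 in the controls and 13.19, 13.27 and 13.22 with AEPS, a difference of 0.45 (SE 0.07, adjusted p 0.00566). Its other probes gave 0.24 and 1.35, both without overlap, so that the probes shared the direction and differed in size. Lamp1, the partner of Lamp2 in the limiting membrane, stood at 16.36, 16.53 and 16.68 in the controls and at 16.33, 16.48 and 16.55 with AEPS, with a difference of -0.07 (adjusted p 0.662). The groups of Lamp1 overlapped, and its difference was 0.48 with spike-in scaling (adjusted p 0.0723).

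The cholesterol exporters Npc1, in the membrane, and Npc2, in the lumen, did not pass, at 0.01 and 0.09, nor did the tetraspanin gene Cd63 at -0.01 or Mcoln1, for the calcium channel TRPML1, at -0.11. Npc1 had the widest error of all members (SE 0.15). With spike-in scaling Cd63 and Mcoln1 turned above 0, at 0.59 and 0.60.

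The samples that share a number in the labels deviated together from their group means, and the numbers 1 and 2 lie on 1 slide each, so the differences were also taken within each number. For 39 of the 43 genes the sign was the same in all 3 numbers, a count that was not taken over all features. With the number as a replicate block in limma 53.5% of all features passed, and of the members 13 were higher and 12 lower: all 21 calls were kept, and Naglu (adjusted p 0.03), Ctsa (0.0441) and Lgmn (0.0489) were added as lower and Ppt1 (0.0275) as higher. On the scanner signals of 2 distinct arrays per group, scaled to the 75th percentile, 8.85% of all features passed, and the median of all features differed from that of the table by -0.12 (by -0.13 with normexp). There only Tfeb (-1.82, adjusted p 0.0147) and Psap (-0.96, adjusted p 0.0411) passed among the members, although all 21 kept their sign.

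Other genes of the pathway, set out by role, also included both rises and falls. By list, from 16.7% (cathepsin inhibitors) to 59.1% (TFEB control, mTORC1 and the Rag complex) of those tested passed, where 37.1% of all features did. Of 37 other lysosomal hydrolases tested (of 38 listed), 5 were higher and 10 lower, with a median of -0.14. The largest falls were in Pla2g15, for lysosomal phospholipase A2, at -1.29 (SE 0.08, adjusted p 0.000351), Ctsf, for cathepsin F, at -0.69, and Galns, for a sulfatase of keratan sulfate, at -0.61. The largest rises were in Galc, for galactosylceramidase, at 0.97, the acid phosphatase gene Acp2 at 0.63 and Aga, for aspartylglucosaminidase, at 0.61. Galns turned to 0.02 with spike-in scaling, and Galc turned to -0.04 with another background correction (normexp) of the scanner signals.

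Of 29 other lysosomal membrane proteins tested (of 31), 8 were higher and 8 lower. Here stood the largest rise of all the lysosome lists: Mcoln2, for the channel TRPML2 and a relative of Mcoln1, went from 5.97, 5.99 and 6.15 in the controls to 8.27, 8.60 and 8.66 with AEPS. The groups were apart by more than 2 units, and the difference of 2.47 (SE 0.13, adjusted p 0.000201) was a 5.55-fold rise, with a log2 difference of 1.52 after normexp (adjusted p 0.00171). Mfsd8, the gene of another ceroid lipofuscinosis protein, was well above background on neither of the control arrays, and its AEPS mean was at least 2.32-fold above the control bound (adjusted p 0.0103 for the measured values of 3.49 and 4.84), with a log2 difference of -0.10 after normexp. The largest falls were in Tmem55b at -0.95, the cystine exporter gene Ctns at -0.70 and Slc15a4, for a histidine and peptide transporter, at -0.62, which turned to 0.01 with spike-in scaling.

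Of 14 further pump subunits and accessory proteins tested (of 19), 3 were higher and 3 lower. The accessory genes Atp6ap2 (0.88) and Atp6ap1 (0.29) and the V0 gene Atp6v0d2 (0.38) were higher. Of the other V0 genes, Atp6v0b (-0.53), Atp6v0e2 (-0.51) and Atp6v0a2 (-0.36) were lower and turned to 0.05, 0.17 and 0.36 with spike-in scaling. Of 13 genes that sort enzymes to the lysosome, 3 were higher and 4 lower. The mannose 6-phosphate receptor gene Igf2r (0.33), the adaptor gene Ap1g1 (0.40) and the retromer gene Vps35 (0.57) rose. Gnptab (-0.52) and Gnptg (-0.32), for subunits of the transferase that makes the mannose 6-phosphate tag, and the adaptor gene Gga2 (-0.37) were lower and turned to 0.14, 0.34 and 0.38 with spike-in scaling.

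Of 22 genes of TFEB control, mTORC1 and the Rag complex tested (of 23), 7 were higher and 6 lower, with a median of 0.14. Tfec, a further member of the TFEB family, went from 5.88, 6.45 and 6.56 to 7.28, 7.65 and 7.40, a rise of 1.15 (SE 0.21, adjusted p 0.00972), opposite to Tfeb, with a difference of 0.64 after normexp (adjusted p 0.0456). The kinase gene Mtor rose by 0.79 and Rraga, for a Rag GTPase that recruits mTORC1 to the lysosome, by 0.54. Fnip2 (-0.67) and Flcn (-0.65), whose products form the folliculin complex that acts on the Rag GTPases, and the Ragulator gene Lamtor1 (-0.56) were lower; Flcn and Lamtor1 turned to 0.01 and 0.05 with spike-in scaling.

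Of 30 genes of autophagy and lysosome fusion tested (of 31), 5 were higher and 12 lower, with a median of -0.12. The deepest fall was in Plekhm1, for an adaptor that tethers vesicles to the lysosome, at -1.51 (SE 0.09, adjusted p 0.000343), followed by the protease gene Atg4b at -0.88 and the LC3 gene Map1lc3a at -0.71. Becn1, for beclin 1, rose by 0.67, the conjugating enzyme gene Atg3 by 0.58 and the tethering gene Vps41 by 0.42. Of 6 cathepsin inhibitors tested (of 8), none was higher in limma, also at an unadjusted p under 0.05, and 1 was lower, the cystatin gene Cst7, at -0.41, which turned to 0.32 with spike-in scaling.

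Of the 19 named falls in these other lists, 11 turned above 0 with spike-in scaling, as given above, and 8 stayed below 0 without passing. These were Plekhm1 at -0.93 (adjusted p 0.0608), Pla2g15 at -0.62 (0.0769), Tmem55b at -0.31 (0.322), Atg4b at -0.21 (0.458), Ctsf at -0.07 (0.762), Ctns at -0.05 (0.839), Map1lc3a at -0.04 (0.875) and Fnip2 at -0.002 (0.995). Leaving out 1 sample ended the call of 9 named genes. Galc missed the threshold without AEPS replicate 3 (adjusted p 0.0539) and Atp6v0a2 without AEPS replicate 2 (0.0535). Atp6v0d2 missed it without control replicate 1 or 3 or AEPS replicate 2 (0.0525 to 0.06). Atp6ap1, Ap1g1 and Vps41 each missed it without control replicate 1 or 2 or AEPS replicate 2 or 3, at up to 0.0874, 0.0681 and 0.0719. Cst7 missed it without control replicate 2 or 3 or AEPS replicate 1 or 3 (0.064 to 0.0807). Gga2 (0.0525 to 0.0777) and Gnptg (0.0711 to 0.128) missed it without any 1 sample other than control replicate 1.

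**Figure D4:**
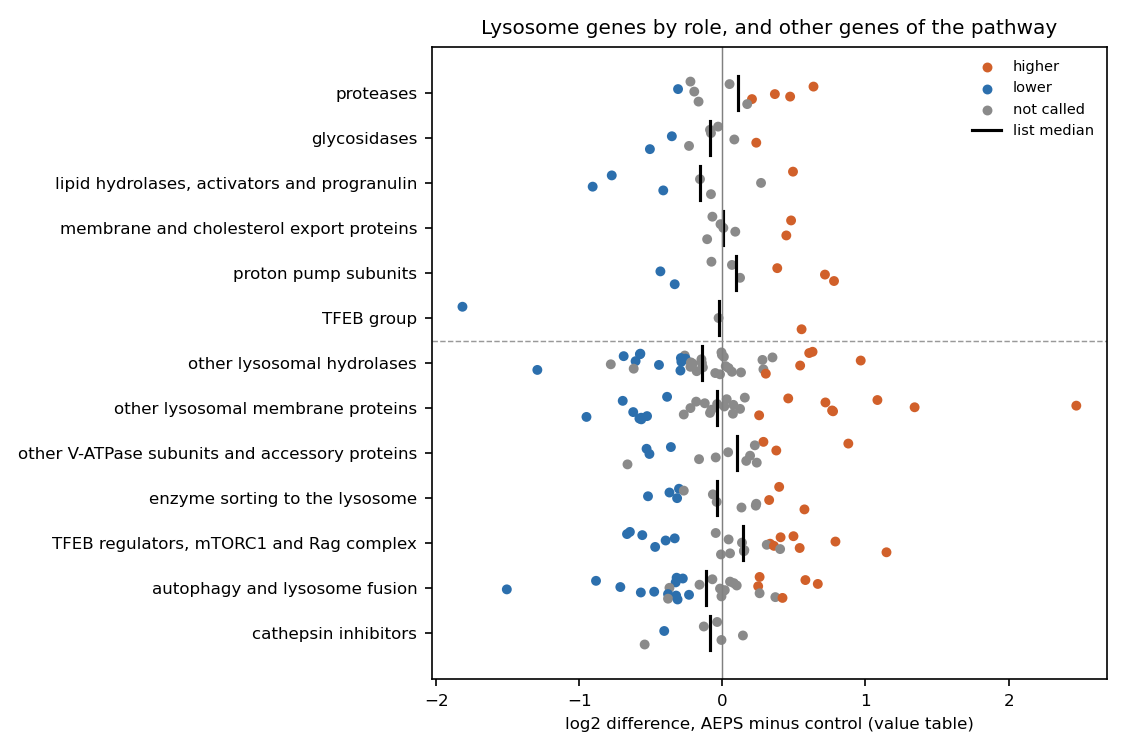
Log2 difference between AEPS and control for each gene tested, by role; the 6 upper lines hold the 43 lysosome genes and the 7 lower lines the other genes of the pathway. Orange points are higher and blue points lower at an adjusted p under 0.05, grey points did not pass, and the black bar is the median of the list. List medians lie between -0.16 and 0.14, with Tfeb at -1.82 and Mcoln2 at 2.47 farthest from 0.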

How the data were processed

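Total RNA of 6 samples was copied into Cy3-labelled cRNA and hybridised to Agilent mouse arrays, per the labels' protocols. Per the file headers, the deposited scanner files came from Feature Extraction 10.7.1.1 and hold intensity values per spot with detection flags; probe positions are on mm9. The authors' deposited table has a column for each sample, close to log2 of that intensity (slope near 1). Every column had a median of 4.71 and, once sorted, the columns agreed to within 0.01; genes were not centred, and the exact log offset and the normalization are not given in the sources used here.

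In each group the scanner files of replicates 1 and 2 were the same, and the file given for replicate 3 matched the replicate 2 column of the table. No scanner file matched the columns of replicate 3. The table, with 3 distinct columns per group, was therefore the main source, and the 4 distinct scanner files, usually preferred, were the alternative and gave the detection flags. The slide of the table's replicate 3 is not known.

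A probe was tested if it was well above background on every distinct array of at least 1 group (30381 of 55681 probes), and the brightest tested probe stood for a gene. No member's probe was saturated. Probes were named by the array's gene name, or by accession through RefSeq (GRCm38.p6) for 26582 probes. Groups were compared with limma 3.58.1 (lmFit, eBayes, R 4.3.3); p-values were adjusted over 22258 features by the Benjamini-Hochberg method, and the code was tested on simulated data. The members and all lists were chosen with earlier results of these data known, so their counts are descriptions. All 43 members were named, and per other list up to 3 of the largest rises and up to 3 of the largest falls past the threshold; 1 gene of that choice is not reported here. Deviations from the group means correlated at 0.56, 0.37 and 0.42 between same-numbered samples and at -0.49 to 0.22 between others. The numbers were therefore taken to pair the samples in the fit with the replicate block, whereas the main fit left them unpaired. The number of arrays limits the precision.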

Additional observations from a re-analysis of the deposited data

How the results depend on the processing

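Each result was recomputed under 16 alternatives: 5 on the scanner files, 5 on the value table and 6 that each left out 1 sample. Called features numbered 8257 in the table and 1970 on the scanner signals at the 75th percentile, 3852 with quantile normalization and 3830 with normexp; called lysosome genes numbered 21 and then 2, 9 and 8. These fits had 2 arrays per group in place of 3, and the cause of the difference was not tested. The split of calls was 4194 higher to 4063 lower in the table, 6189 to 221 with spike-in scaling, and 3663 to 5186 with the slide as replicate block on the scanner signals; there 20 lysosome genes passed, 10 in each direction. The median log2 change of the lysosome genes, -0.03 in the table, was -0.063 at the 75th percentile and with the slide block, 0.025 with normexp and 0.60 with spike-in scaling. With the sample number as a replicate block in the table, 11902 features and 25 lysosome genes passed and no lysosome gene was lost.

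Without any 1 sample, 5738 to 7271 features and 15 to 19 lysosome genes passed and the median change of the latter ran from -0.06 to 0.032. Of the 21 calls, 15 held without any 1 sample. Among genes that never passed there, the log2 change ran across 0 for Npc1 (-0.12 to 0.10), Hexa (-0.12 to 0.032), Lamp1 (-0.15 to 0.0083) and Cd63 (-0.063 to 0.045). Without a detection filter Ctsz (adjusted p 0.0751) and Manba (0.0927) missed the threshold.

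Signs turned as follows. Spike-in scaling moves all features of an array by the same amount. Against the 75th percentile scaling of the same signals it raised the median difference of all features by 0.67. The turns listed for it are thus a shift in common and not separate findings for each gene. The cause of the other turns was not tested. With the 75th percentile and with the slide block Ctsb was at -0.021. With normexp Glb1 was at 0.032, Cd63 at 0.025, Galc at -0.036 and Mfsd8 at -0.10. With spike-in scaling, among the proteases Ctsa and Ctsd were at 0.25, Ctsh at 0.54 and Lgmn at 0.42; among the glycosidases Hexa was at 0.61, Gla at 0.24, Glb1 at 0.56, Gaa at 0.25, Naglu at 0.44 and Neu1 at 0.15. Lipa was at 0.48, Gm2a at 0.26, Grn at 0.52, Lamp1 at 0.48, Cd63 at 0.59, Mcoln1 at 0.60, Atp6v0c at 0.48, Atp6v1b2 at 0.22, Tcirg1 at 0.30 and Tfe3 at 0.60. Outside the 43, Galns was at 0.020, Slc15a4 at 0.011, Atp6v0b at 0.052, Atp6v0e2 at 0.17, Atp6v0a2 at 0.36, Gnptab at 0.14, Gga2 at 0.38, Gnptg at 0.34, Flcn at 0.011, Lamtor1 at 0.052 and Cst7 at 0.32.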
